A study of Mus musculus with 16 samples.

Results

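The genes described here encode the proteins of the cytosolic ribosome. They were taken by name: protein-coding genes whose symbol is Rpl or Rps with a number and at most a short suffix, together with Rplp0, Rplp1, Rplp2 and Rpsa. Of 29806 gene rows, 88 fitted the names, 5 of these were annotated as pseudogenes and left out, and 83 remained. They comprised 31 genes of small subunit proteins, 43 of large subunit proteins, 3 of the stalk of the large subunit, and 6 paralogues (Rpl10l, Rpl22l1, Rpl39l, Rpl3l, Rpl7l1 and Rps27l). The rule itself uses symbols and annotated gene types.

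RNA was sequenced from mouse bone marrow cells in 16 libraries, 4 in each of 4 groups. The groups were haematopoietic stem cells (HSC) with the WT genotype, HSC with the Jak2V617F genotype, Fcgr-negative MPP3 with the WT genotype and Fcgr-negative MPP3 with the Jak2V617F genotype. The WT samples are called control and the Jak2V617F samples mutant. MPP3 are multipotent progenitors biased towards the myeloid lineages, and Fcgr-negative means that they lacked surface Fc gamma receptor. Jak2V617F is an activating change in a kinase of cytokine receptors that is found in myeloproliferative neoplasms. The labels give neither the promoter nor the form of the mutant allele, nor the age of the mice, and they do not say whether libraries of a group came from separate mice. Each group had 1 library in each of 4 labelled batches, so the replicate number is the batch. The p-values therefore measure the spread between these libraries.

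The ribosome is built from a small subunit, which reads the messenger, and a large subunit, which joins amino acids. Each holds ribosomal RNA and a fixed set of proteins, most of them present as a single copy. The genes of these proteins are highly expressed. Their messengers begin with a short run of pyrimidines (the TOP motif), through which translation is tuned by the mTOR pathway and by Larp1. In blood formation, loss of 1 copy of RPS19, RPL5 or RPL11 causes Diamond-Blackfan anaemia, and loss of 1 copy of RPS14 belongs to a myelodysplastic syndrome with a deletion on a chromosome arm.

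The start sites of 8 genes are shown because the results below turn on these genes or on a paralogue pair. Each window holds the 15 bases before and the 15 bases after the transcription start in the RefSeq promoter table (GRCm38.p6), 5′ to 3′ on the gene's strand, and capitals mark the longest run of C and T.
Rpl35, chr2:39005117-39005146, minus strand: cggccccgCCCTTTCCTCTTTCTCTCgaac
Rpl13a, chr7:45128731-45128760, minus strand: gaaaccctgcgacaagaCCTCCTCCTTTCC
Rps27, chr3:90213634-90213663, minus strand: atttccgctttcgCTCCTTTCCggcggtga
Rps9, chr7:3704026-3704055, plus strand: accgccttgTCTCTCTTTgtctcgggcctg
Rpl13, chr8:123102335-123102364, plus strand: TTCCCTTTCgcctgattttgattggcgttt
Rps27l, chr9:66946071-66946100, plus strand: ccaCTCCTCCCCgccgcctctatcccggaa
Rpl22l1, chr3:28805493-28805522, plus strand: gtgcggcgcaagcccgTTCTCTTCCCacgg
Rpl22, chr4:152324421-152324450, plus strand: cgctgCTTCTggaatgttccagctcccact
The run was 18 bases long in Rpl35, 13 in Rpl13a, 10 in Rpl22l1, 9 in Rps27, Rps9, Rpl13 and Rps27l, and 5 in Rpl22. Lengths are counted within the window, so the runs of Rpl13a and Rpl13, which touch its edge, may be longer. The marked runs of Rpl13, Rps27l and Rpl22 lie wholly before the listed start and are not shown to be TOP motifs. The most upstream start listed for each gene was used.

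A promoter was matched by symbol for 63 of the 83 genes. A pyrimidine run of at least 8 bases within 15 bases of the start was present in 25 of the 63 (39.7%), against 11.8% of 27025 promoters in the table. Over the 250 bases before the start, on either strand, CCGGAAG, the letters bound by GABP and other ETS factors, was present in 30.2% of the 63 and 7.07% of all promoters. TCTCGCGA, part of a palindrome known from promoters of housekeeping genes, was present in 14.3% against 0.932%, and Rpl35 and Rps19 were among the 9 genes that had it. GGGCGG, the core of an Sp1 site, was present in 47.6%, against 8907 of the 27025 promoters, and TATAAA in 6.35% against 13.0%. The searched strings do not contain each other. Rpl22 and Rpl22l1 were among the 4 genes with TATAAA. These shares describe letters in a window and no binding was measured.

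The libraries held 33108537 to 41230956 estimated gene counts. CPM is a row's count scaled to the library's size after normalization. The 8 HSC markers summed to 2254 to 2308 CPM in control HSC and 1111 to 1228 CPM in mutant HSC. In MPP3 they summed to 665 to 856 CPM in control and 454 to 678 CPM in mutant. The 6 MPP3 and early myeloid markers summed to 5.23 to 34.3 CPM over the HSC libraries and 1981 to 5012 CPM over the MPP3 libraries, so both cell type labels had their markers. The 4 T cell markers summed to at most 1.56 CPM in any library and Cd3e had a mean of 0 in 3 of the 4 groups. The 5 granulocyte markers summed to 1.38 to 277 CPM over all libraries. The 5 erythroid markers summed to 343 to 697 CPM in control MPP3 and 23.3 to 214 CPM in mutant MPP3, without overlap. In HSC they summed to 74.3 to 202 CPM in control and 48.8 to 125 CPM in mutant. Of these markers Epor went the other way in HSC, with means of 24.9 CPM in control and 37.3 CPM in mutant. The 4 B cell markers, mostly Cd79b, were also lower in mutant without overlap. They summed to 101 to 147 CPM in control and 67.7 to 99.6 CPM in mutant MPP3. In HSC the B cell sums were 72.1 to 94.1 CPM in control and 53.4 to 66.9 CPM in mutant. The 4 megakaryocyte markers summed to 815 to 1230 CPM in mutant against 552 to 766 CPM in control HSC. A point mutation cannot be read from gene counts, so the genotype labels were not checked here. Bulk libraries of sorted cells do not tell fewer cells of a type from less RNA per cell.

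Many ribosomal protein messengers have left processed copies in the genome, and for some genes these copies held a large part of the estimated counts. Rps12 and Rps27, both small subunit genes, were listed at 0 in all 16 libraries, although every cell makes these proteins. Near-identical rows were far from 0: Rps27rt, an intronless copy of Rps27, had a mean of 687 CPM (483 to 949), Rps12-ps3 had 367 CPM (260 to 536) and Rps12l1 had 251 CPM (148 to 408). Rps27 lies at chr3:90212522-90213651 on the minus strand and Rps27rt at chr9:114982366-114982739 on the minus strand (GENCODE M21, GRCm38). Their coding sequences have 255 bases and 0 differences. The length given for the Rps27 row was also 255 bases in every library, and that for Rps27rt was 370 bases. A read from the coding sequence therefore cannot be assigned to Rps27 or to Rps27rt.

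The paralogue Rps27l, in contrast, can be told from Rps27 by sequence, which is why both coding sequences are shown. They are read from GENCODE M21, 5′ to 3′, and capitals mark the bases that differ.
Rps27: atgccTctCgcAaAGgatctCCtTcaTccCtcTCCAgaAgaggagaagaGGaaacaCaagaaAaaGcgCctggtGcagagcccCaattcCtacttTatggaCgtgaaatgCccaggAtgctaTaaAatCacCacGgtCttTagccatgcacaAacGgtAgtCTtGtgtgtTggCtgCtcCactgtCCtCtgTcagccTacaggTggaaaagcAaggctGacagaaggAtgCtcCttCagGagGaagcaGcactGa
Rps27l: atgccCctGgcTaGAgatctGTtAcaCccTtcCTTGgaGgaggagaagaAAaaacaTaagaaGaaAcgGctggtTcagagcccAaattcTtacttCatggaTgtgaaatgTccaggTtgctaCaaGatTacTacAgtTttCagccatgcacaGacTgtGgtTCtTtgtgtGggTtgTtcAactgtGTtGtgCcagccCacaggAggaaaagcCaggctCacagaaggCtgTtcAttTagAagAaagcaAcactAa
The pair differed at 61 of 255 bases, an identity of 76.1%, and the differences were spread over the whole length.

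Copies were then counted by sequence: a row outside the 83 genes was taken as a copy when at least 30% of its 31-base words were found in the transcripts of a gene. There were 412 such rows, of which 162 reached a mean of 1 CPM. For 25 of the 83 genes at least 10% of the combined counts lay in copy rows, for 13 at least 50%, and for 46 under 1%. Rpl5, whose protein carries the 5S RNA into the large subunit together with Rpl11, had 101 CPM in its own row and 1499 CPM in copies, so 93.7% lay outside it. Its main copy, Gm15500, contains a whole annotated coding sequence of Rpl5 (894 bases). Rpl12 had 79.3% in copies, Rps23 75.1%, Rpl27a 72.3%, Rpl27 70.9% and Rpl15 66.7%. Rpl13 had 2900 CPM in its own row and 2451 CPM in copies, mostly in Gm12918, a processed pseudogene at chr4:10848420-10849055. Values of these genes below are therefore those of a row, unless the copies are said to be added, which is done for some genes only.

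**Figure D1:**
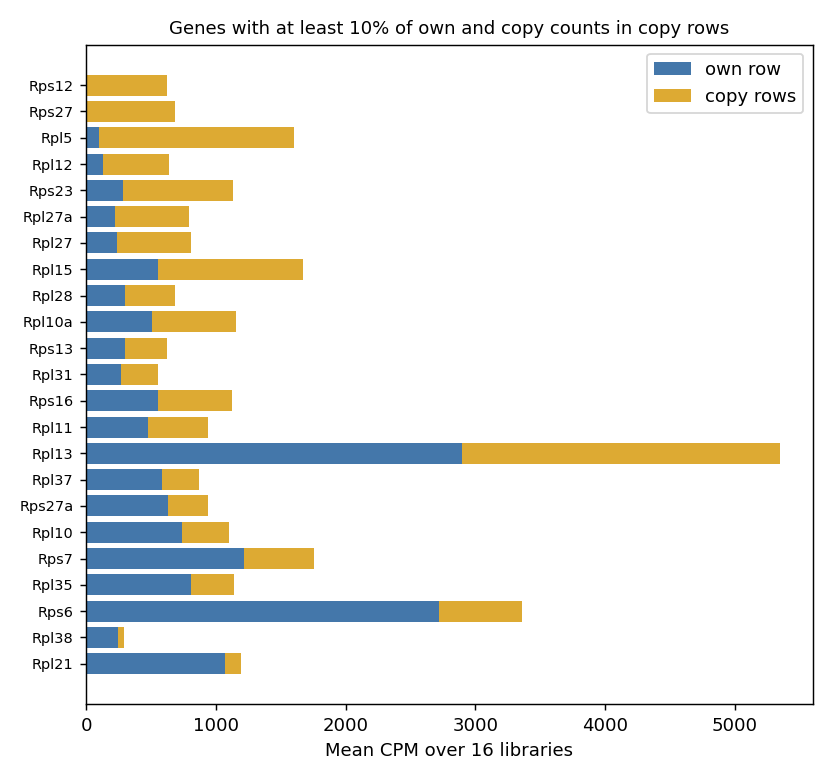
Mean CPM over 16 libraries (x axis) of 23 of the 25 genes with at least 10% of their combined counts in copy rows, split into the gene's own row (blue) and its copy rows (yellow). Rps12 and Rps27 at the top are listed at 0 in their own rows, and Rpl5 has 101 CPM of its own beside 1499 CPM in copies.

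Levels of different genes are compared per length, from the deposited TPM. The mean TPM had a median of 1820 over the 83 genes and exceeded 100 in 77 of them. Rps19, a small subunit protein needed to mature its ribosomal RNA, was the highest single row with 11167 TPM (9221 to 12334 over the libraries). Rpl32 of the large subunit followed with 9552 TPM (8172 to 10782) and Rps14 of the small subunit platform with 8710 TPM (7109 to 10867). The ranges of these 3 genes overlapped. With copies added, Rpl13 came first with 12439 TPM (10355 to 14718), against 5976 TPM in its own row, and Rps19 had 11333 TPM (9382 to 12506), again with overlapping ranges. Among genes that passed the filter on low counts, the lowest were Rpl3l with 0.278 TPM, Rpl39l with 0.813 TPM and the row of Rpl5 with 85.7 TPM. Rpl3l is the form of Rpl3 made in heart and skeletal muscle, and Rpl39l and Rpl10l are known from testis. Rpl10l had 0.0129 TPM and did not pass the filter. The other paralogues were well above these: Rpl7l1 had 148 TPM and Rps27l 492 TPM. The filter left 80 of the 83 genes for testing, without Rps12, Rps27 and Rpl10l.

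The 83 genes together took between 8.54% and 12.1% of all counts in a library. In control HSC the share was 11.1%, 11.6%, 10.6% and 9.67% in replicates 1 to 4. In mutant HSC it was 8.54%, 9.55%, 12.1% and 8.55%. Replicate 3 of mutant HSC had the highest share of all 16 libraries, while the other 3 mutant HSC libraries were below every control HSC library. In control MPP3 the share was 10.4%, 11.4%, 9.23% and 8.69%, and in mutant MPP3 9.49%, 9.54%, 9.17% and 9.21%. The mutant MPP3 values lay within the range of control MPP3. The 95% Wilson interval of each share, which covers counting error only, reached at most 0.0108 points to either side.

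Group means of the share were 10.7% ± 0.805 (SD, n = 4) in control HSC, 9.70% ± 1.69 in mutant HSC, 9.91% ± 1.19 in control MPP3 and 9.35% ± 0.191 in mutant MPP3. Without replicate 3 the mean of mutant HSC was 8.88%. Within batches, mutant minus control HSC was -2.52, -2.01, 1.51 and -1.11 points in batches 1 to 4. For MPP3 the differences were -0.888, -1.81, -0.0656 and 0.516 points. MPP3 minus HSC was -0.687, -0.209, -1.40 and -0.976 points in control and 0.945, -0.0107, -2.97 and 0.654 points in mutant. Only the control comparison of cell types had the same sign in all 4 batches.

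Other measures moved beside the share. Mitochondrially encoded genes took 2.03%, 1.96%, 1.68% and 1.45% of counts in control HSC and 1.16%, 1.36%, 1.37% and 0.924% in mutant HSC, so all 4 mutant values were below all 4 control values. In replicate 3 of mutant HSC the MPP3 and early myeloid markers summed to 34.3 CPM against 6.43 to 13.0 CPM in the other mutant HSC libraries, and the granulocyte markers to 44.8 CPM against 2.01 to 11.7 CPM. Its HSC markers, at 1188 CPM, lay within the range of the others. In control HSC the MPP3 and early myeloid markers summed to 5.23 to 24.3 CPM and the granulocyte markers to 19.2 to 64.5 CPM. The granulocyte sum of replicate 3 of mutant HSC thus lay within the control HSC range. The part of these measures in the share was not tested. Small and large subunit genes took 4.74% ± 0.392 and 5.27% ± 0.349 of counts in control HSC, and 4.23% ± 0.831 and 4.79% ± 0.712 in mutant HSC (SD, n = 4).

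**Figure D2:**
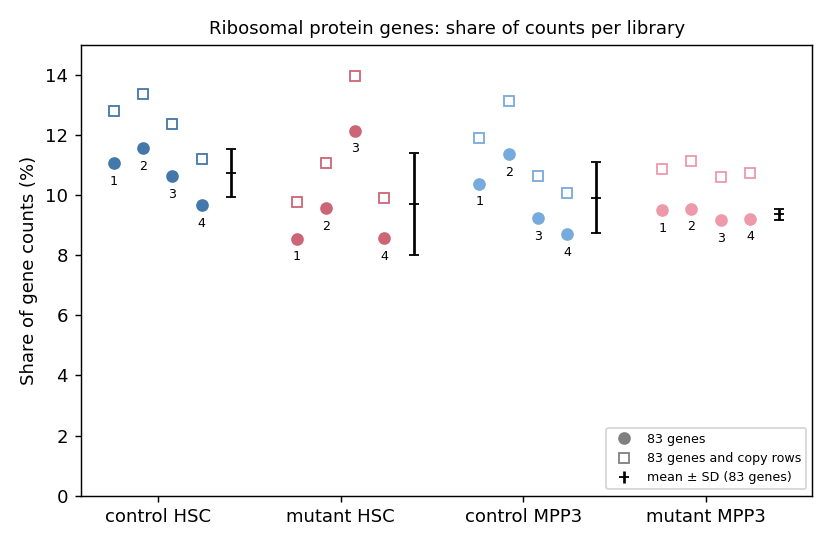
Share of gene counts in percent (y axis) for each library, by group (x axis); filled points are the 83 genes with the replicate number beneath, open squares add the copy rows, and bars are the mean ± SD (n = 4) of the filled points. Replicate 3 of mutant HSC is highest at 12.1%, and the other 3 mutant HSC libraries lie between 8.54% and 9.55%.

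In some libraries nearly all ribosomal protein genes lay on the same side of their means, and in others they were divided. For the 75 genes that passed the filter and are not paralogues, the log2 of CPM + 1 was taken relative to each gene's mean over the 16 libraries. The median deviation was highest in replicate 3 of mutant HSC, at 0.36, where 72 of 75 genes were above their mean. It was lowest in replicate 4 of control MPP3, at -0.28, where 5 of 75 genes were above their mean. In replicates 1 and 4 of mutant HSC it was -0.26 in each, with 4 and 2 genes above their mean. In replicate 2 of mutant HSC and replicates 1, 2 and 4 of mutant MPP3 the genes were divided, with 28, 48, 35 and 27 of 75 above their mean and medians of -0.04, 0.05, -0.01 and -0.03. For 2062 other genes of at least the lowest mean level of these 75, the median lay between -0.16 and 0.15. Control HSC replicates had 0.20, 0.21, 0.09 and -0.11, so control replicates also differed. Shorter and longer genes of the set, split at the median effective length, had medians of 0.37 and 0.32 in replicate 3 of mutant HSC and of -0.34 and -0.22 in replicate 4 of control MPP3.

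**Figure D3:**
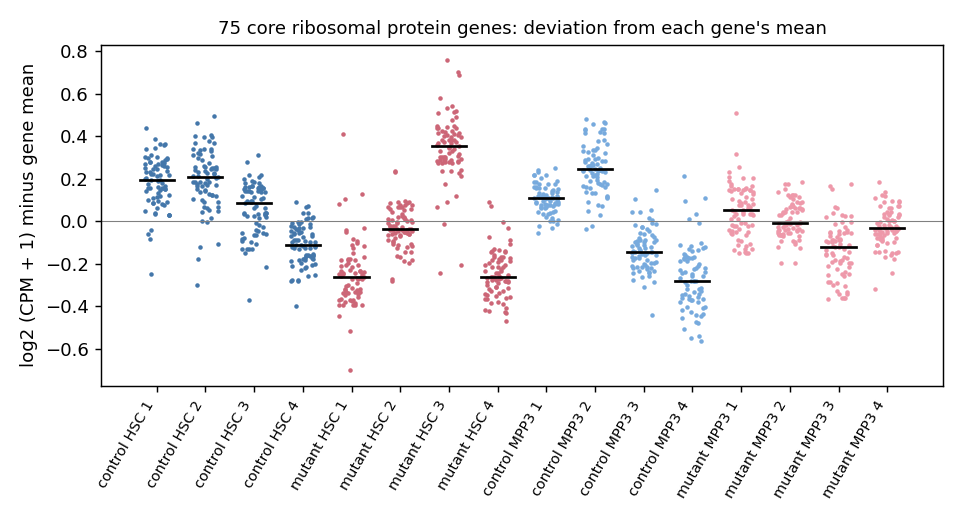
Deviation of log2 (CPM + 1) from each gene's mean over 16 libraries (y axis) for 75 core ribosomal protein genes (points) in each library (x axis), with the median as a black line. The medians run from -0.28 in control MPP3 replicate 4 to 0.36 in mutant HSC replicate 3, and in mutant HSC 2 and mutant MPP3 1, 2 and 4 the genes lie on both sides of 0.

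In mutant against control HSC, no ribosomal protein gene changed in edgeR's quasi-likelihood test at a Benjamini-Hochberg adjusted p under 0.05. That test called 7.3% of 14179 genes. The median log2 fold change of the 80 genes tested was -0.12, against -0.06 over all genes, and 64 of the 80 had a negative value. The small subunit genes had 27 of 29 negative values (median -0.13), the large subunit genes 33 of 43 (median -0.13), the stalk genes 3 of 3, and the paralogues 1 of 5. At an unadjusted p under 0.05 there were 3 higher and 5 lower genes, against 11.1% and 10.6% of all genes. DESeq2 called 1 gene higher, Rpl13a, against 8.58% of all genes it tested, and limma-voom called 0. The 95% interval of the fold change lay within 1.5-fold in either direction for 70 of the 80 genes and within 2-fold for 78. The lower HSC and B cell marker sums and mitochondrial share of mutant HSC given above accompany this comparison, and their part in it was not tested.

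Rps14 had 3267, 3474, 3375 and 2963 CPM in control HSC and 2136, 2603, 3368 and 2515 CPM in mutant HSC. Replicate 3 of mutant HSC lay among the controls and the other 3 mutant libraries below all of them. The log2 fold change was -0.30 ± 0.11 (SE, edgeR adjusted p = 0.106). Rps19 had 3651, 3777, 3851 and 3403 CPM in control HSC and 2712, 3186, 3762 and 3138 CPM in mutant HSC, with the same replicate overlapping the controls. Its log2 fold change was -0.20 ± 0.08 (edgeR adjusted p = 0.171). In both genes the mutant library was lower than the control library of its batch in 4 of 4 batches.

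The proteins that are best known outside the ribosome showed no call either. Rpl11 had a log2 fold change of -0.18 ± 0.14, the Rpl5 row 0.06 ± 0.13 and, with its copies, -0.03 ± 0.11. Rpsa, also known as a laminin receptor, had -0.04 ± 0.20, with 5051 CPM in mutant HSC replicate 3 against 2385, 2906 and 2518 CPM in replicates 1, 2 and 4. Rps27a, made as a fusion with ubiquitin, had -0.10 ± 0.16. The stalk proteins recruit elongation factors: Rplp0 had -0.04 ± 0.14, Rplp1 -0.28 ± 0.19 and Rplp2 -0.10 ± 0.19. Rpl10, which is added late and lets the subunits join, had -0.29 ± 0.13 (edgeR adjusted p = 0.184), Rpl3 -0.13 ± 0.08, Rpl7 -0.14 ± 0.15, Rps4x -0.21 ± 0.14, Rpl32 -0.23 ± 0.11, Rpl22 -0.10 ± 0.15 and Rpl39 of the exit tunnel -0.09 ± 0.20. None of these passed. Replicate 3 was the highest of the 4 mutant HSC libraries for each of these genes except the Rpl5 row, which was highest in replicate 2.

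Positive values in HSC were fewer. Rps27l, which is induced by p53 in many cells, had 105, 100, 94.0 and 86.3 CPM in control HSC and 114, 127, 121 and 111 CPM in mutant HSC. It was the 1 gene of 80 whose groups did not overlap in this direction, against 7.26% of all genes, and no gene was lower without overlap, against 7.6%. Its log2 fold change was 0.30 ± 0.12 (edgeR adjusted p = 0.163, and 0.0591 to 0.334 over 29 alternatives). Rpl13a, named after its values were seen, had 397, 372, 384 and 319 CPM in control HSC and 452, 390, 495 and 441 CPM in mutant HSC. Mutant exceeded control in 4 of 4 batches, and the groups overlapped because replicate 2 of mutant HSC lay below replicate 1 of control HSC. Its log2 fold change was 0.27 ± 0.09 (edgeR adjusted p = 0.0871, DESeq2 adjusted p = 0.0308). Without replicate 2 of mutant HSC it passed the edgeR test (0.36, adjusted p = 0.0375).

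Of the other paralogues, Rpl22l1, which can replace Rpl22, had 217, 209, 158 and 148 CPM in control HSC and 183, 193, 200 and 148 CPM in mutant HSC. The groups overlapped (log2 fold change -0.01 ± 0.16). Rpl7l1, a nucleolar relative of Rpl7, had 0.03 ± 0.11. Rpl39l stayed at or under 1.14 CPM and Rpl3l at or under 1.76 CPM in every library, and their log2 fold changes of 0.76 ± 1.32 and 4.03 ± 2.16 rest on very few counts.

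**Figure D4:**
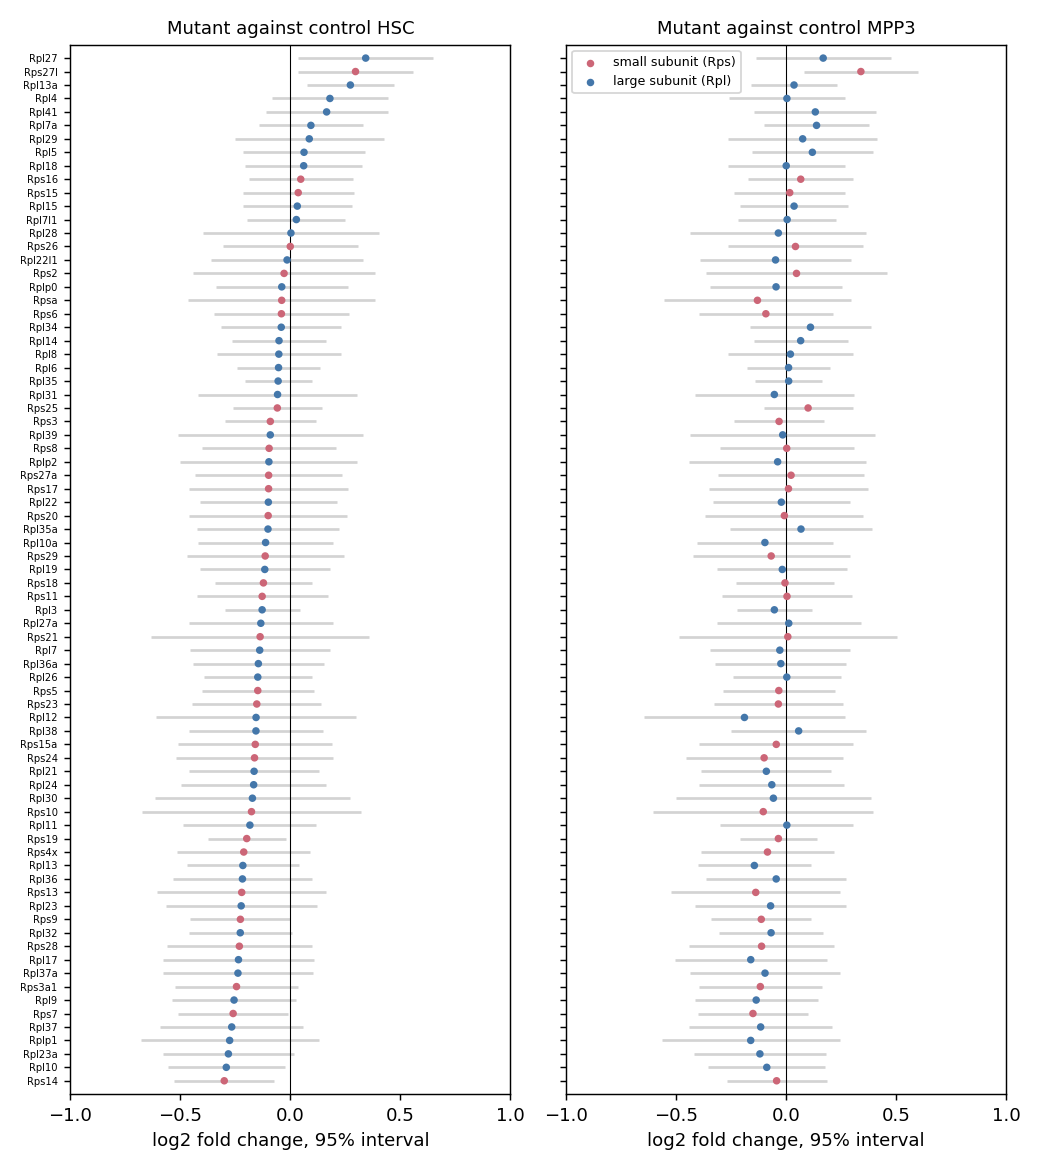
Log2 fold change, mutant against control (x axis), in HSC (left) and MPP3 (right) for 77 ribosomal protein genes in the order of their HSC value, with the 95% interval as a grey line; red points are Rps and blue points Rpl genes, and Rpl3l and Rpl39l are left out for their low counts. Most HSC values lie below 0 (64 of the 80 genes tested), and none passed the adjusted test.

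The count of 0 depended on replicate 3 of mutant HSC, the library with the highest ribosomal protein share, which is singled out here because of that value. Leaving out a library chosen by these same genes favours lower values. Counts and p-values of these genes without it, here and below, are therefore no evidence of a fall. Without replicate 3, 10 of 80 genes were called lower and 0 higher in mutant HSC, while the same fit called 3.26% of 14500 genes lower. Among the 10 genes were Rpl13, Rpl23a, Rpl32, Rpl9, Rps14, Rps19, Rps3a1, Rps7 and Rps9. The median was -0.25, 70 of 80 values were negative, and 32 genes were lower and 3 higher at an unadjusted p under 0.05, against 9.99% and 13.3% of all genes. Rps14 then had -0.40 ± 0.08 (edgeR adjusted p = 0.00646), Rps19 -0.25 ± 0.07 (0.0317), Rpl32 -0.35 ± 0.08 (0.00768) and Rps9, a small subunit protein, -0.34 ± 0.07 (0.00872). With the copies added as well, 14 of 82 genes fell, against 3.92% of all genes called lower. In that fit Rpl13 had -0.43 ± 0.08 (edgeR adjusted p = 0.00205) and Rps27, from its copies, -0.65 ± 0.12 (0.00335). Without replicates 1 and 4 of mutant HSC in place of replicate 3, 0 of 80 genes were called and the median was 0.09, the opposite direction. Over the 16 fits that left out 1 library the median ran from -0.25 without replicate 3 to -0.01 without replicate 4 of mutant HSC. Rpl13, Rpl23a, Rpl9, Rps3a1, Rps7 and Rps9 were named after these values were seen.

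No label sets this library apart, and its total count lay within the range of the others. The values with all 4 libraries are the main ones.

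The row of Rps27rt, whose coding sequence is that of Rps27, was lower in mutant HSC. It had 881, 949, 842 and 757 CPM in control HSC and 483, 627, 798 and 532 CPM in mutant HSC. The groups overlapped only through replicate 3 of mutant HSC and replicate 4 of control HSC. The log2 fold change of Rps27rt was -0.49 ± 0.14 and passed (adjusted p = 0.0428 by edgeR). Rps27 with its copies had -0.49 ± 0.14 (edgeR adjusted p = 0.0421). Its own row is at 0 and its copies hold 687 CPM, nearly all in Rps27rt. It is therefore the same result and not a further one. The fit with copies called 2.88% of all genes lower. The call on Rps27rt was lost in 12 of 16 fits that left out 1 library (adjusted p 0.00526 to 0.149 over the 16), without a filter on low counts (0.0669), with the groups fitted alone (0.0862) and without replicates 1 and 4 of mutant HSC (0.428). Without replicate 3 of mutant HSC it was -0.61 ± 0.12 (edgeR adjusted p = 0.00526). In MPP3 the value of Rps27rt was -0.19 ± 0.14, and the difference between the cell types was 0.30 ± 0.20 for Rps27 with copies (edgeR adjusted p = 0.869).

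In mutant against control MPP3, no ribosomal protein gene changed. The edgeR test called 0.0635% of all genes here, so few genes of any kind passed. The median log2 fold change was -0.03 against -0.02 over all genes, with 33 positive and 47 negative values. The sign of the median turned with 1 library: it was 0.10 without replicate 2 and -0.10 without replicate 4 of control MPP3, the highest and lowest of the 16 such fits. At an unadjusted p under 0.05, 2 genes were higher and 0 lower, against 6.31% and 7.52% of all genes, and DESeq2 and limma-voom called 0. The 95% interval lay within 1.5-fold for 75 of 80 genes. Rps27l had 119, 125, 113 and 95.2 CPM in control and 177, 144, 112 and 141 CPM in mutant MPP3, with replicate 3 of the mutant among the controls. Its log2 fold change was 0.34 ± 0.12 (edgeR adjusted p = 0.221). Rpl39l, at 0.0531 CPM or less in control and 0.536 CPM or less in mutant MPP3, was the other gene with a small unadjusted p, at a level of few counts. Rps14 had -0.04 ± 0.11, Rps19 -0.04 ± 0.08 and Rpl13a 0.04 ± 0.09. The lower erythroid and B cell marker sums of mutant MPP3 given above accompany this comparison, and their part in it was not tested.

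The mutant effect on these genes was not shown to differ between the cell types. For the difference of the effect, MPP3 minus HSC, 0 of 80 genes passed the edgeR test, against 0.0423% of all genes. DESeq2 and limma-voom called 0, and 0 genes had an unadjusted p under 0.05, against 6.93% of all genes. The median difference was 0.10, with 65 positive and 15 negative values, and the interval lay within 1.5-fold for 53 of 80 genes. Without replicate 3 of mutant HSC the median was 0.21, with 5 genes higher at an unadjusted p under 0.05 (3.19% of all genes) and 0 called. It was 0.01 without replicate 4 of mutant HSC or replicate 4 of control MPP3, and -0.11 without replicates 1 and 4 of mutant HSC.

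Between control MPP3 and control HSC, 0 of 80 ribosomal protein genes passed the edgeR test, which called 13.6% of all genes, and the median log2 fold change was -0.07 against -0.01 over all genes. At an unadjusted p under 0.05, 3 genes were higher and 4 lower, against 13.2% of all genes in each direction. The groups did not overlap for 2 genes with higher values in MPP3, Rpl35 and Rpl4 (9.25% of all genes), and for 2 with lower values, Rps14 and Rpl39l (10.2%). Rps14 had 2737, 2960, 2582 and 2495 CPM in control MPP3. The highest of these lay just under the lowest control HSC value, 2963 CPM. Its log2 fold change was -0.28 ± 0.11 (edgeR adjusted p = 0.0998). Rpl13a had 460, 434, 393 and 449 CPM in control MPP3 and a log2 fold change of 0.24 ± 0.09 (adjusted p = 0.103). DESeq2 called Rpl35 higher (8.5% of all genes) and Rpl39l lower (8.73%), and limma-voom called Rpl35 higher (6.86%). Leaving out replicate 2 of control MPP3 gave 1 lower gene, Rpl21 (-0.46, edgeR adjusted p = 0.037). Leaving out replicate 3 of mutant HSC, which is in neither group but shares the fit, gave 2 lower genes, Rps14 and Rpl39l.

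In mutant mice, Rpl35 rose in MPP3 and was the 1 gene of 80 called, against 3.69% of all genes called higher and 8.36% called in either direction. Rpl35 is a large subunit protein near the exit of the tunnel, where the signal recognition particle docks. It had 786, 707, 695 and 706 CPM in mutant HSC and 925, 832, 907 and 857 CPM in mutant MPP3. All 4 MPP3 libraries were above all 4 HSC libraries, as for 6.14% of all genes. The log2 fold change was 0.28 ± 0.07 (edgeR adjusted p = 0.0192). In control, Rpl35 had 819, 746, 692 and 751 CPM in HSC and 866, 869, 890 and 867 CPM in MPP3, again without overlap. There the log2 fold change was 0.22 ± 0.07 (edgeR adjusted p = 0.0567), and with the replicate block it was 0.22 (adjusted p = 0.0367). It also passed without replicate 1 of control HSC (adjusted p = 0.0433), replicate 1 or 3 of mutant HSC (0.0443 and 0.0233), or replicate 1, 2 or 4 of mutant MPP3 (0.0368 to 0.0392). The mutant libraries are in neither of the 2 groups compared but share the fit. In the other fits that left out 1 library Rpl35 did not pass in control. Over 27 alternatives its adjusted p there ran from 0.0158 to 0.194. With the copies added, 29.1% of the sum, the log2 fold change was 0.23 ± 0.07 (adjusted p = 0.0426) in control and 0.30 ± 0.07 (adjusted p = 0.0115) in mutant, where 6.73% and 3.72% of all genes were called higher. Whether the change differed between genotypes was tested by the difference of effects above, which called no ribosomal protein gene.

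The call on Rpl35 in mutant mice was lost when replicate 2, 3 or 4 of mutant HSC or replicate 1 or 3 of mutant MPP3 was left out (adjusted p 0.0544 to 0.0897, log2 fold change 0.25 in each). It was also lost when the 2 groups were fitted alone (0.26, adjusted p = 0.121). The median of the 80 genes in this comparison was 0.02 (all genes 0.00), with 43 positive and 37 negative values, and 3 genes were higher and 0 lower at an unadjusted p under 0.05, against 9.48% and 10.9% of all genes. Without replicate 3 of mutant HSC the median was 0.13 and 73 of 80 values were positive, with 0 called, and without replicate 4 of mutant HSC the median was -0.06. Rps25, used by viral internal ribosome entry sites, joined Rpl35 (0.33, edgeR adjusted p = 0.040) when the copies were also added, where 3.25% of all genes were called higher. The 4 comparisons share groups in pairs and are not independent of each other.

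**Figure D5:**
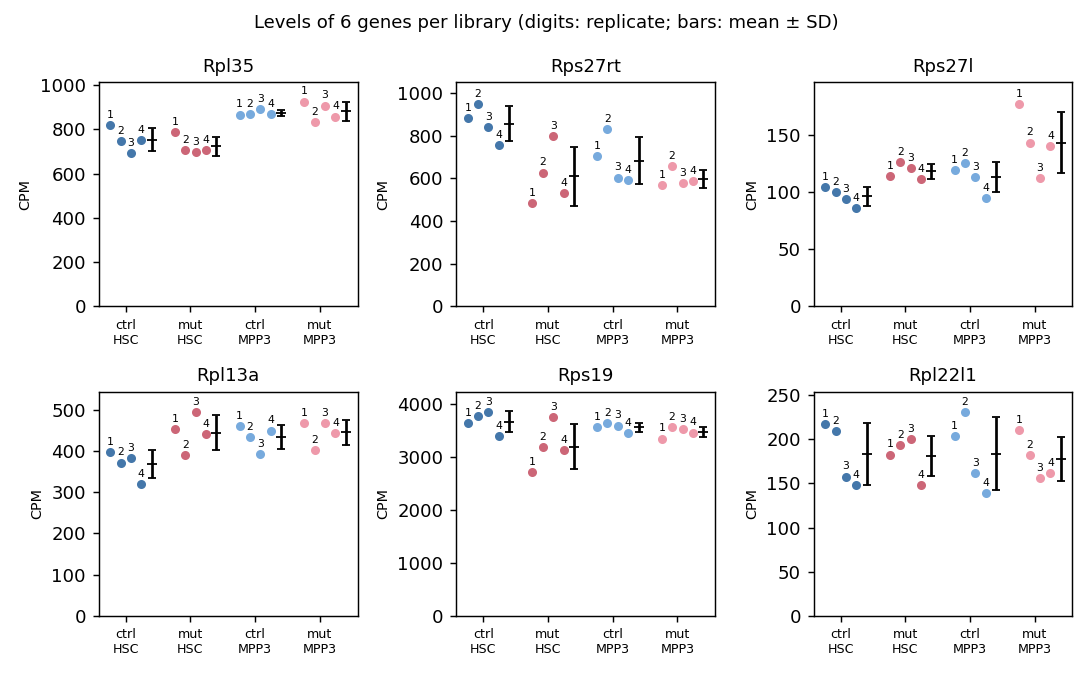
CPM (y axis, from 0) in each library for Rpl35, Rps27rt, Rps27l, Rpl13a, Rps19 and Rpl22l1 by group (x axis); digits are replicate numbers and bars the mean ± SD (n = 4). Rpl35 is higher in MPP3 than in HSC in both genotypes without overlap, and replicate 3 of mutant HSC lies near the controls for Rps27rt and Rps19.

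When the libraries were scaled to the ribosomal protein total, Rpl27 (0.47 ± 0.12, edgeR adjusted p = 0.035) and Rpl41 (0.29 ± 0.08, 0.0358) were called higher in mutant HSC, against 4.24% of all genes. This scale is set by the counts of these same genes. It brings their median log2 fold change in this comparison to 0.00, from -0.12 in the main fit. A gene that falls less than the set can thus appear as a rise. The calls are relative to the set and are by themselves no evidence of a rise. Rpl41 is the shortest ribosomal protein. Of the counts of Rpl27, 70.9% lay in copies, which this fit did not add. Both were named after their values were seen. On that scale Rpl35 had 0.24 between mutant MPP3 and mutant HSC (adjusted p = 0.471), and 0 genes were called in the other comparisons.

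Genes that encode ribosomal proteins but fall outside the names were examined beside the set. Fau is a fusion of a ubiquitin-like part with a ribosomal protein, Rpl36al is a paralogue of Rpl36a, and Rack1 is a scaffold on the small subunit. In mutant HSC 1 of the 5 fell, Rps27rt, against 2.74% of all genes, a call that most fits leaving out 1 library lost, as given above. None of the 5 passed the edgeR test in the other comparisons. Fau had -0.11 ± 0.14, Rack1 -0.03 ± 0.13 and Rpl36al 0.26 ± 0.14. Rack1 had 2474 CPM in replicate 3 of mutant HSC against 1448 to 1879 CPM in the other 3.

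Translation factors and other messengers known or proposed to be under TOP control were followed as a second list. Of its 29 genes, 5 rose and 0 fell in mutant HSC (median -0.01), where 4.56% of all genes were called higher. In control MPP3 against control HSC 4 rose and 0 fell (median 0.10), where 6.67% of all genes were called higher and 13.6% in either direction, and 0 passed in the other 3 comparisons. Whether this list differs from the ribosomal protein genes was not tested. Nap1l1, a histone chaperone, had 90.2, 75.5, 74.5 and 71.3 CPM in control HSC and 160, 162, 127 and 125 CPM in mutant HSC. The groups did not overlap, replicate 3 included, and the log2 fold change was 0.88 ± 0.17 (edgeR adjusted p = 0.00415). Hnrnpa1, an RNA-binding protein, rose by 0.42 ± 0.09 (0.0125), Eif5a, which relieves stalled ribosomes, by 0.54 ± 0.12 (0.0137), Eif4e, which binds the cap, by 0.61 ± 0.15 (0.0235) and Npm1, a nucleolar chaperone, by 0.37 ± 0.11 (0.0477). Nap1l1, Hnrnpa1 and Eif5a were called in 16 of 16 fits that left out 1 library, Eif4e in 12 and Npm1 in 9. Without replicates 1 and 4 of mutant HSC the calls on Hnrnpa1 (adjusted p = 0.184), Eif5a (0.222), Eif4e (0.415) and Npm1 (0.154) were lost. Scaling to the ribosomal protein total ended the calls on Hnrnpa1 (0.59, edgeR adjusted p = 0.0556), Eif5a (0.70, 0.0609) and Eif4e (0.80, 0.0597). Their log2 fold changes were larger on that scale than in the main fit. Eif4e was also lost with the groups fitted alone (0.0597), and Npm1 with TMM computed without the ribosomal protein genes (0.0543) and without replicate 3 with copies added (0.0600). In control MPP3 against control HSC, Nap1l1 rose by 0.67 ± 0.17 (adjusted p = 0.0123), Eif4a1, the helicase of initiation, by 0.63 ± 0.18 (0.0272), Larp1 by 0.35 ± 0.10 (0.0287) and Hnrnpa1 by 0.32 ± 0.09 (0.0341). These calls were kept in 15, 11, 11 and 8 of 16 fits that left out 1 library. Under the ribosomal protein scaling those on Eif4a1 (0.73, edgeR adjusted p = 0.071), Larp1 (0.45, 0.0835) and Hnrnpa1 (0.41, 0.148) were lost. Here too the log2 fold changes were larger than in the main fit.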

How the data were processed

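Gene tables of 16 bulk RNA-seq libraries were used. Per the labels' protocols, RNA from 7000 to 10000 cells was made into cDNA with a SMARTer Ultra Low kit and read as pairs of 150 bases. Per the submitters' processing notes, cutadapt 4.0, FastQC, HISAT2, Salmon and GRCm38/mm10 were used; the sources used here do not give settings or the transcript set. The authors deposited estimated counts (expected counts, not whole), TPM and effective lengths per gene. The TPM values, per the file headers, were used only to compare levels between genes.

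Estimated counts were rounded and tested with edgeR 4.0.16 (quasi-likelihood, robust, TMM, filterByExpr by group, 14179 genes, all 16 libraries in 4 groups, Benjamini-Hochberg over all genes, 5 comparisons, call at adjusted p under 0.05). Fold changes are on the log2 scale with SE from the F statistic. CPM is a row's count scaled to the library's counts over the tested genes times its TMM factor. Shares of counts use all gene counts without that factor, so CPM and shares are on different scales. Alternatives used DESeq2 1.42.0 and limma 3.58.1 in R 4.3.3, other scalings, and libraries left out. The fit was tested on simulated data.

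Replicate numbers are labelled batches and so pair the libraries. Same-numbered libraries had deviations correlated at 0.0068 to 0.273 over 16 pairs. Named genes are up to 6 called genes in each direction and comparison, the 3 highest and 3 lowest in TPM, a list of 23 genes by role, genes with a library far from its group, and called genes of the 2 pathway lists; others are marked as named after their values were seen. Members and lists were chosen with earlier results of these data known. A few genes are counted but not reported by name here. Rps4l is annotated as a pseudogene and is not reported. Copies by sequence, scaling to the ribosomal protein total and the fit without mutant HSC replicate 3 with copies added were chosen after seeing the data.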

Additional observations from a re-analysis of the deposited data

Results flagged for a closer look

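Among 180 groups of 4 libraries checked, 11 held a library farther from the others than Dixon's 95% critical value allows; chance flags about 1 group in 20. Replicate 3 of mutant HSC was the high library for Rpl3 (6680 CPM against 5234 to 5410), Rps3a1 (4040 CPM against 2654 to 2799) and Rps9 (3160 CPM against 2128 to 2257). For Rpl35, replicate 1 of mutant HSC was high (786 CPM against 695 to 707), as was replicate 3 of control MPP3 (890 CPM against 866 to 869). Rpl10 was high in replicate 1 of mutant MPP3 (862 CPM against 688 to 714), and Rpl41 was low in replicate 3 of mutant MPP3 (1500 CPM against 1802 to 1839). Larp1 was high in replicate 2 of mutant HSC (170 CPM against 129 to 135). Rpl10l in control HSC (0.052 CPM), Rpl3l in control HSC (0.0277 CPM) and Rpl39l in control MPP3 (0.0531 CPM) were above 0 in a single library of their group.

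Signal appeared in rows outside the 83 genes: Rps27rt had a mean of 687 CPM, Rps12-ps3 of 367 CPM and Rps12l1 of 251 CPM over the 16 libraries, while Rps27 and Rps12 were listed at 0.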

How the results depend on the processing

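In mutant against control HSC, the number of ribosomal protein genes called higher was 0 in the main analysis, 1 with DESeq2, and 0 to 1 when 1 library was left out. It was 2 with libraries scaled to the ribosomal protein total, a scale set by these same genes. The number called lower was 0, 1 with copies found by sequence added, 0 to 10 when 1 library was left out, and 14 without mutant HSC replicate 3 and with copies added. The 1 gene called with copies added was Rps27, whose counts are nearly all those of Rps27rt. In control MPP3 against control HSC, the number called higher was 0, and 1 under each of DESeq2, the replicate block, copies added, offsets by effective length, limma-voom and testing without the low-count filter (0 to 1 when 1 library was left out). The number called lower was 0, 1 with DESeq2 or the groups compared alone, and 0 to 2 when 1 library was left out. In mutant MPP3 against mutant HSC, the number called higher was 1, 0 with the groups compared alone or the ribosomal protein scaling, 0 to 1 when 1 library was left out, and 2 without mutant HSC replicate 3 and with copies added. In mutant against control MPP3 and in the difference of effects the counts were 0 under every alternative run. The replicate block changed no call on a ribosomal protein gene other than Rpl35 in control, and among the translation genes it added calls on Larp1 in mutant HSC, Hnrnpa1 in mutant MPP3 against control and against mutant HSC, and Npm1 and Eif5a in control MPP3 against HSC. The causes of these changes were not tested. No call on a named gene reversed its sign.

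The share of the 83 genes, as a share of the deposited TPM, was 22.2% in control HSC, 20.1% in mutant HSC, 20.8% in control MPP3 and 19.7% in mutant MPP3. With copies found by sequence it was 12.4%, 11.2%, 11.4% and 10.8%, and with copies named after a gene 9.92% in mutant MPP3. Leaving out 1 library gave 10.5% to 11.1%, 8.88% to 10.1%, 9.43% to 10.3% and 9.29% to 9.41%. Depth limits Rpl3l, Rpl39l and Rpl10l, which rest on few counts.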
